A study of Mus musculus with 80 samples.

Results

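Livers of mice that drank dichloroacetic acid (DCA) at the higher doses were compared with control livers, using RNA from formalin-fixed, paraffin-embedded (FFPE) tissue. The comparison takes 18 of the 80 libraries of the series: 6 controls (animals 3 to 8) and, pooled as 1 treated group, 6 animals at 2 g/L (animals 73 to 78) and 6 at 3.5 g/L (animals 97 to 102). Members were chosen by preparation and animal number in the column headers and by dose in the sample titles, with no measured value. The question was which genes differ with the higher doses in archived tissue, and whether their direction is the same in frozen liver of the same 18 animals.

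All animals were male B6C3F1 mice (an F1 hybrid often used in toxicology) with a labelled age of 4 weeks. DCA was given in drinking water, and controls drank water at 0 g/L. The length of exposure is not stated in the labels, and the livers were collected in 1994. FFPE RNA came from 4 sections of 10 µm through the left lateral and right medial lobes, while the frozen pieces came from mixed lobes, so preparation and lobe cannot be told apart. All libraries were made from 100 ng of total RNA with a stranded kit that removes ribosomal RNA. The labels name separate animals, so each library is 1 animal. In whole liver, fewer cells of a type and less RNA per cell cannot be told apart.

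DCA forms when drinking water is chlorinated. It blocks the kinase that switches off pyruvate dehydrogenase, and it is broken down by the glutathione transferase Gstz1. In rodent liver it is known as a peroxisome proliferator. Such compounds act through PPAR alpha, a nuclear receptor of hepatocytes that binds DNA together with a retinoid X receptor. Its best known targets are the Cyp4a enzymes, which hydroxylate the far end of a fatty acid, the enzymes that shorten fatty acids in peroxisomes, and carriers and hydrolases of fatty acyl-CoA.

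The treated FFPE libraries were far shallower than the controls, and depth, sequencing run and dose moved together. Counts that did not fall on Rn45s, the ribosomal RNA precursor, ran from 877074 to 4357876 in controls and from 20053 to 477795 in treated libraries, a ratio of medians of 47.1. Rn45s took 29.1% ± 34.7 (SD, n = 6) of all counts in controls and 63.7% ± 21.4 (SD, n = 12) in treated libraries (two-sided exact permutation test, p = 0.0204). All 6 controls were sequenced in the run named V18431 and all 12 treated libraries in W48315, so run and treatment cannot be told apart within these libraries. Controls 3 and 5 had high Rn45s shares (74.4% and 73.4%), and the other 4 controls held 4.89% to 9.40%. The hepatocyte gene Alb was counted in every library, from 236 to 140810 counts.

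**Figure D1:**
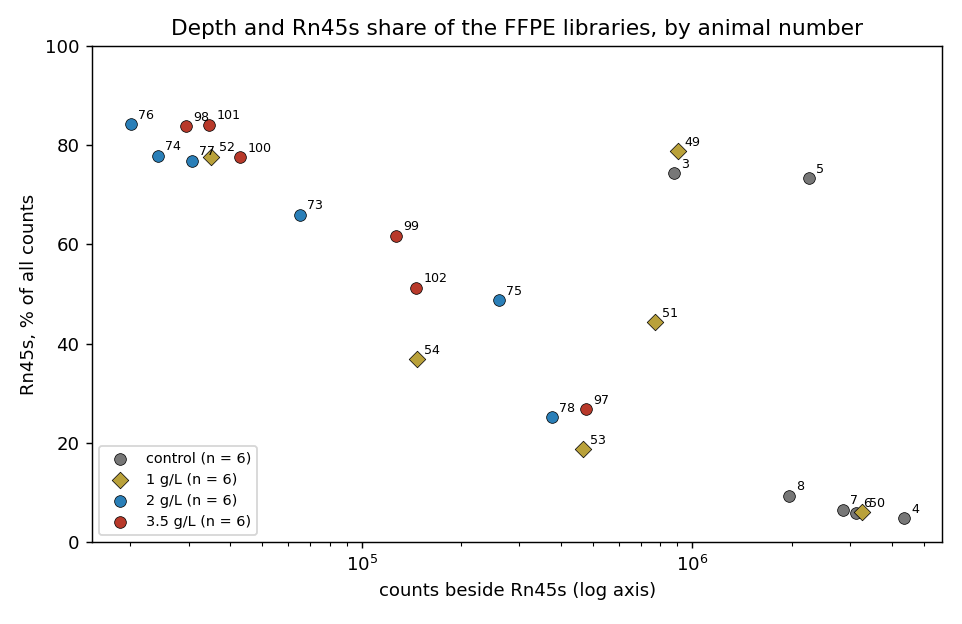
Counts that did not fall on Rn45s (x axis, log scale) against the percent of all counts on Rn45s (y axis) in the 24 FFPE libraries of the DCA study, numbered by animal; circles are control (grey), 2 g/L (blue) and 3.5 g/L (red), diamonds 1 g/L. The 12 treated libraries lie between 20053 and 477795 counts, below all 6 controls.

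Pooling both higher doses, 13 genes were called higher and 6 lower in treated FFPE liver (edgeR's quasi-likelihood test, Benjamini-Hochberg adjusted p under 0.05). That is 0.387% and 0.179% of the 3357 genes tested (0.566% in all), and an unadjusted p under 0.05 was reached by 200 genes, or 5.96%. The median log2 fold change over all genes tested was -0.49, and 24.5% of genes had a value above 0, so signs are also given against this median. In frozen liver of the same animals, 2621 genes were called higher and 2296 lower, 20.2% and 17.7% of 12944 tested (38% in all). These frozen libraries were all in run W48315, controls in lane L5 and treated ones in L3 or L4, so lane and treatment cannot be told apart. Animals 73, 74 and 75, in L3, had 3067666 to 3854949 counts, and the other frozen libraries had at least 13120816. The spread between libraries of a group, as the common biological coefficient of variation, was 1.01 in FFPE and 0.1785 in frozen liver of the same animals. Of the 13 genes called higher in FFPE, 7 were also called higher in frozen liver, and 4 of the 6 called lower were also called lower. None was called in opposite directions, 6 were tested and not called in frozen liver, and 2 were not tested there.

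Genes of fatty acid oxidation led the rises, with 6 members of the PPAR alpha lists called higher and none called lower. These 4 lists (omega-hydroxylation by Cyp4 enzymes, peroxisomal oxidation, mitochondrial oxidation with ketogenesis, and other PPAR alpha markers) hold 85 genes, of which 63 were tested in FFPE. Those called higher were Cyp4a10, Cyp4a14, Cyp4a31, Ehhadh, Acot1 and Aldh3a2. Of these, Cyp4a10, Cyp4a14, Cyp4a31 and Acot1 were too low in controls to pass the filter on low counts without treated libraries. Part of this count was set by the filter, because a gene this low in controls is tested only where treated libraries are higher. The 63 had a median log2 fold change of 0.50 (0.19 without animal 102), and 51 of them lay above the median of all genes. In frozen liver 62 of 81 tested members were called higher and 8 lower, with a median of 0.98. The FFPE and frozen medians cover different members, since Acot3 (8.75 in frozen liver) and Acot2 (5.86), among others, were not tested in FFPE.

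Promoter windows of RefSeq (build GRCm38.p6, 250 bases before to 50 after the start) are shown for Ehhadh and Acaa1b, the members of the peroxisomal list with the largest frozen rise among those that were tested in FFPE, had a positive log2 fold change there and had a window. Members below the FFPE filter on low counts, such as Acot3 and Acot4, were not considered. They were searched on both strands for 2 copies of AGGTCA in the same direction with any 1 base between them, the direct repeat that PPAR alpha is known to bind, allowing 2 differences. Capitals mark the stretch closest to that repeat, which differs from it at 4 positions in both windows. The Ehhadh window is chr16:21787785-21788084 on the minus strand, and the Acaa1b window is chr9:119157044-119157343 on the minus strand.
Ehhadh: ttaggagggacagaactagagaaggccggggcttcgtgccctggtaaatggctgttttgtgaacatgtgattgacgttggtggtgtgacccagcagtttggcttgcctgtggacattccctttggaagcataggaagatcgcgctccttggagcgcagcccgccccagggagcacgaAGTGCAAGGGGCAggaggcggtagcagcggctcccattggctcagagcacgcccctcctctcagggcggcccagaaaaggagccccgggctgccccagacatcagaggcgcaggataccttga
Acaa1b: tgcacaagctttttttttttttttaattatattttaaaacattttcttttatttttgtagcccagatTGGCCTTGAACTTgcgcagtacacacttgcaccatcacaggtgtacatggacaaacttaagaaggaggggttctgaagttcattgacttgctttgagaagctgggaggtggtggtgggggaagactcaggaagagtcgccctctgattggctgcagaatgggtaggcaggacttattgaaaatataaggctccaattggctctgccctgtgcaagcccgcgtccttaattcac
The Ehhadh stretch lies on the strand of the gene at position -73 from the start, and the Acaa1b stretch lies on the opposite strand at -183. Neither window had a match within 2 differences, which 3.86% of 32851 promoter windows had. No match says only that these letters are not in these windows.

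Of the Cyp4 omega-hydroxylases, Cyp4a10, Cyp4a14 and Cyp4a31 were called higher. Cyp4a10 (chr4:115518264-115533649, plus strand, mm10) ran from 3.73 to 17.1 CPM (counts scaled to library size) in control FFPE libraries, with a median of 11. Its treated libraries ran from 179 to 1622 CPM with a median of 673, all 12 above every control. The log2 fold change was 6.02 ± 0.71 (SE, adjusted p = 3.1e-14, edgeR). In frozen liver the controls ran from 1.72 to 43.1 CPM and the treated libraries from 602 to 4669 CPM, a log2 fold change of 7.59 ± 0.64.

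Cyp4a14 (chr4:115486200-115496142, minus strand) had control values of 2.00 to 76.9 CPM, median 9.15, and treated values of 238 to 2593 CPM, median 979. Again no treated library overlapped the controls, and the log2 fold change was 5.49 ± 0.67 (adjusted p = 1.74e-13, edgeR). Frozen values went from 0.224 to 13.2 CPM in controls and from 693 to 6752 CPM in treated liver, a log2 fold change of 9.76 ± 0.71. Cyp4a31 (chr4:115563649-115579015, plus strand) was at 0 in 4 of 6 controls and in 4 of 12 treated libraries, with a highest value of 7.12 CPM in controls and 273 CPM in treated libraries. Only 8 treated libraries lay above every control, and the log2 fold change was 4.94 ± 1.18 (adjusted p = 0.00779, edgeR), against 6.14 ± 0.51 in frozen liver. The Cyp4a genes of this cluster are close copies, so reads may be split among them and their separate values are uncertain. Over the list, 3 of 9 tested members were called higher, with a median of 2.08. That median rests on few genes and was 0.70 to 1.31 without any 1 of animals 73, 75, 76, 77, 97, 98, 100, 101 or 102, with the lowest value without animal 73. It was 0.17 at 2 g/L alone and 6.22 over the 3 members tested after drawing libraries to equal depth.

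In the peroxisomal pathway, Ehhadh (chr16:21761287-21787807, minus strand), the bifunctional enzyme that catalyses the middle steps of each cycle, was called. Its control values were 29.5 to 88.3 CPM, median 54.7, and its treated values 267 to 2405 CPM, median 688. The groups did not overlap, and the log2 fold change was 3.97 ± 0.61 (adjusted p = 6.14e-08, edgeR). The frozen fold change was 5.08 ± 0.39 on the log2 scale. Cyp4a10, Cyp4a14 and Ehhadh were among the 5 genes with all 12 treated libraries above every control, 0.149% of those tested, and among 4.43% of tested genes with such a separation in frozen liver.

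Acaa1b (chr9:119148023-119157093, minus strand), the thiolase of the last step, ran from 44.5 to 195 CPM in controls and from 35.6 to 1031 CPM in treated libraries. Of these, 9 lay above every control and 1 below. Its log2 fold change of 2.16 ± 0.60 missed the threshold (adjusted p = 0.0537, edgeR) and was 3.06 ± 0.28 and called in frozen liver. Reads may also be shared with its near copy Acaa1a. In all, 1 of 22 tested peroxisomal members was called, the list median was 0.61, and 18 members lay above the median of all genes.

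Acot1 (chr12:84009490-84018371, plus strand), a cytosolic hydrolase of acyl-CoA, reached 4.28 CPM at most in controls and 186 CPM in treated libraries. Its treated libraries divided into 7 above every control and 5 with no count, and its log2 fold change was 5.60 ± 1.17 (adjusted p = 5.19e-04, edgeR), against 5.13 ± 0.51 in frozen liver. Its counts may be shared with Acot2. Aldh3a2 (chr11:61223417-61267464, minus strand), which oxidises fatty aldehydes, ran from 5.88 to 57.0 CPM in controls and from 0 to 498 CPM in treated libraries. It was above every control in 8 treated libraries and at 0 in 2, with a log2 fold change of 2.70 ± 0.69 (adjusted p = 0.0177, edgeR) and 3.43 ± 0.33 in frozen liver.

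Among mitochondrial genes 1 of 20 tested members was called, which was Acot1, listed there with its mitochondrial relative. Decr1, which reduces double bonds of unsaturated fatty acids, stood at 1.42 ± 0.81 in FFPE and 1.54 ± 0.13 in frozen liver. The median of the list was 0.13, with 16 members above the median of all genes, and it ran from -0.06 without animal 102 to 0.24 without control 3.

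The other PPAR alpha markers had 1 of 12 tested members called, Aldh3a2, and a median of 0.61. With 1 library left out this median ran from 0.11 without animal 76 to 1.17 without animal 75, and it moved by more than 1.5 times in 16 of 18 such fits (all but those without animal 99 or 102). The fatty acid carrier Fabp1 had a log2 fold change of 1.13 ± 0.54 in FFPE and 1.62 ± 0.19 in frozen liver. The lipid droplet coat protein Plin2 stood at 1.21 ± 0.65 and 1.95 ± 0.24, and the retinol saturase Retsat at 1.44 ± 0.77 and 2.62 ± 0.24. None of these 3 was called in FFPE and all were in frozen liver.

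**Figure D2:**
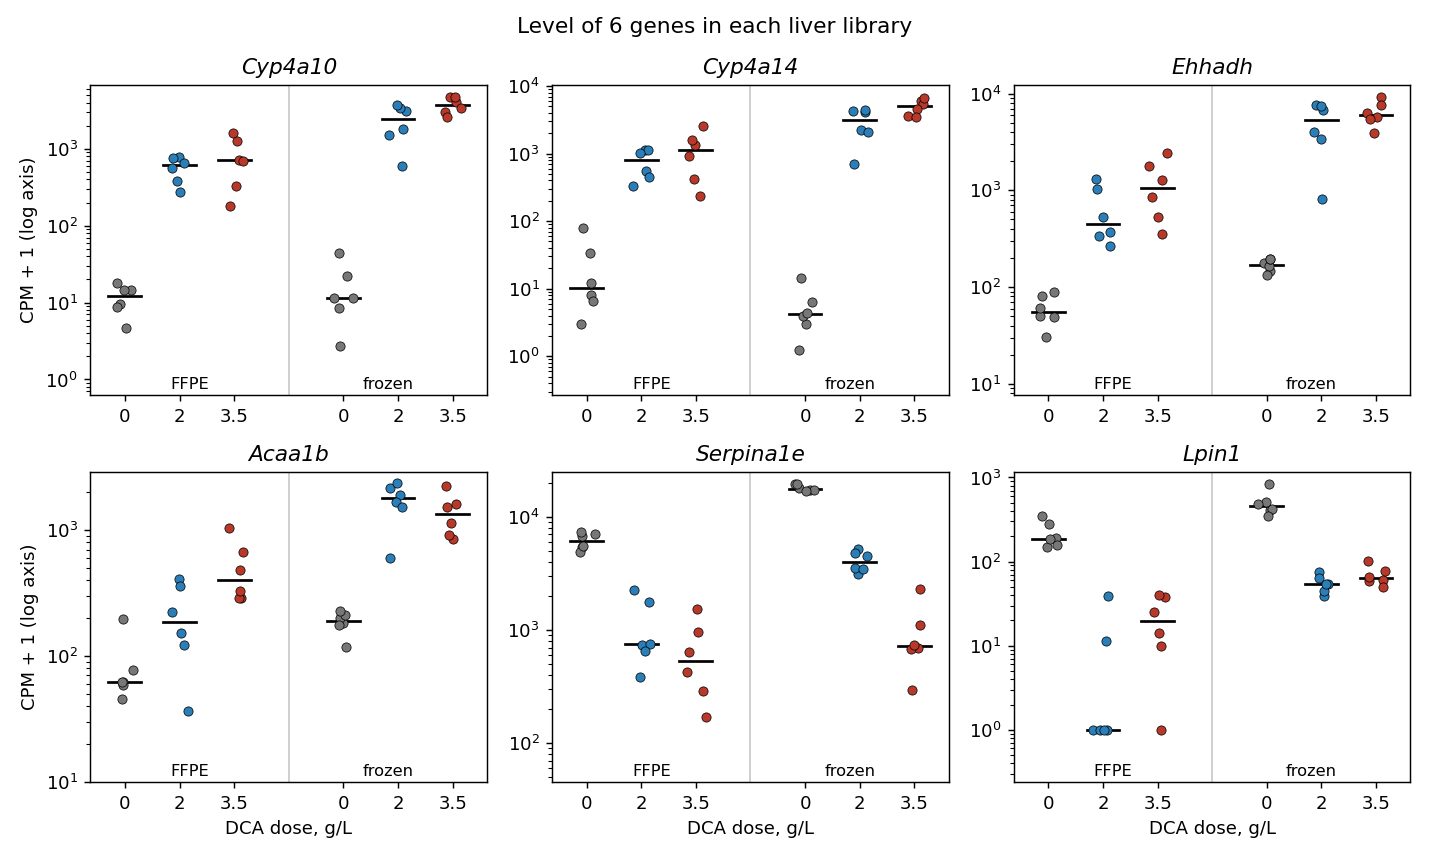
CPM plus 1 (log y axis) of 6 genes in each FFPE and frozen library by DCA dose in g/L; each point is 1 animal (n = 6 per dose) and the bar is the median. All 12 treated FFPE libraries lie above every control for Cyp4a10, Cyp4a14 and Ehhadh and below every control for Serpina1e and Lpin1, while Acaa1b overlaps the controls.

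Lipid synthesis genes lay between these groups. Scd1 (chr19:44394455-44407879, minus strand), the desaturase that makes oleate, ran from 831 to 2847 CPM in controls and from 1983 to 8784 CPM in treated FFPE libraries, 10 of which lay above every control. Its log2 fold change of 1.61 ± 0.49 was not called (adjusted p = 0.115, edgeR), and in frozen liver it was 3.03 ± 0.28 and called. The fatty acid and triglyceride synthesis list had 18 tested members in FFPE, 0 called higher, 1 lower and a median of -0.19. That median ran from -0.35 without animal 77 to 0.04 without control 7. At matched depth 3 members were tested and 2 were called higher. In frozen liver 10 of 20 were called higher and 3 lower, with a median of 0.46. Summed, the list with Scd1 held 0.290% to 1.139% of counts beside Rn45s in control FFPE libraries and 1.144% to 2.498% in treated ones. Much of this sum can be Scd1 alone, which had 8438 counts in library 97, where the highest list count of a treated library was 10605. The sum is thus no measure of the list as a whole.

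The member called lower in FFPE was Lpin1 (chr12:16535669-16610966, minus strand), a phosphatidate phosphatase that also coactivates transcription. It ran from 147 to 344 CPM in controls, median 187, and from 0 to 38.6 CPM in treated libraries, median 9.76. All 12 treated libraries lay below every control and 5 had no count. The log2 fold change was -3.73 ± 0.68 (adjusted p = 2.23e-05, edgeR) in FFPE and -3.03 ± 0.17 in frozen liver. It rests on 83 counts over the 12 treated libraries.

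Serpina1e (chr12:103946931-103958975, minus strand), a secreted serine protease inhibitor of the alpha-1-antitrypsin family was also called lower. Control FFPE libraries held 4911 to 7413 CPM, median 6125, and treated libraries 171 to 2260 CPM, median 700. There was no overlap, and the log2 fold change was -2.80 ± 0.44 (adjusted p = 1.05e-07, edgeR). Frozen values went from 16996 to 19707 CPM in controls to between 292 and 5197 CPM in treated liver. The Serpina1 genes are close copies, so its share of their reads is uncertain.

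Zbtb16 (chr9:48654297-48836222, minus strand), a zinc finger transcription factor, ran from 33.3 to 104 CPM in controls and from 0 to 27.1 CPM in treated libraries, 8 of which had no count. The groups did not overlap, with a log2 fold change of -3.53 ± 0.89 (adjusted p = 0.0152, edgeR) in FFPE and -2.22 ± 0.17 in frozen liver. Genes with all 12 treated libraries below every control numbered 25, or 0.745% of those tested (3.41% in frozen liver). Depth goes with treatment here, and its part in that number was not tested.

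Hba-a2 (chr11:32296489-32297298, plus strand), an alpha globin chain of red blood cells, was the remaining fall shared with frozen liver. It ran from 183 to 372 CPM in controls and from 0 to 181 CPM in treated libraries, with no overlap, and its log2 fold change was -2.19 ± 0.59 (adjusted p = 0.041, edgeR) against -1.28 ± 0.24 in frozen liver. Its near copy Hba-a1 may share its reads. Of 4 tested red blood cell markers 1 was called lower, and the 6 markers in the table together held 0.0341% to 0.132% of counts beside Rn45s in controls and 0% to 0.107% in treated libraries. The part of blood left in the tissue was not tested.

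No secreted protein of the hepatocyte list was called in FFPE. All 15 members were tested, 9 reached an unadjusted p under 0.05 downwards, and every one lay below the median of all genes, with a list median of -0.97, which was -0.17 at matched depth. Trf, the iron carrier transferrin, went from 4233 to 6146 CPM in controls to 800 to 3405 CPM in treated libraries, with no overlap and a log2 fold change of -1.52 ± 0.43 (adjusted p = 0.07, edgeR). In frozen liver 12 of the 15 were called lower and 1 higher, with a median of -0.59. The acute phase and coagulation list had 18 tested members, none called, none above the median of all genes and a median of -0.97 (-0.61 without control 8), and in frozen liver 8 of 22 were called lower and none higher. Serpina3k stood at -1.45 ± 0.44, the fetuin Ahsg at -1.48 ± 0.44 and the complement component C4b at -1.77 ± 0.52, and all 3 were called lower in frozen liver and not in FFPE. Summed, the secreted proteins held 3.57% to 9.31% of counts beside Rn45s in control FFPE libraries and 3.88% to 7.12% in treated ones, which overlap.

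Hepatocyte zonation markers had no calls in FFPE. The pericentral list (7 tested, median -0.98) included Cyp1a2, a cytochrome of drug metabolism, with a log2 fold change of -2.14 ± 0.67 (adjusted p = 0.151, edgeR) and all 12 treated libraries below every control. It was -1.27 ± 0.10 in frozen liver, where 10 of 11 members were called lower. The periportal list (10 tested, median -0.96) included Cps1, the first enzyme of the urea cycle, at -1.27 ± 0.46 in FFPE and -0.66 ± 0.10 in frozen liver. Of 11 periportal members tested in frozen liver, 7 were called lower and 1 higher, with a median of -0.37. Cyp2e1, an ethanol-oxidising cytochrome of the pericentral list, stood at -0.79 ± 0.47 in FFPE and -0.46 ± 0.10 in frozen liver, and Pck1, a gluconeogenic enzyme of the periportal list, at -1.25 ± 0.51 and -1.18 ± 0.14.

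Genes close to the known actions of DCA did not pass the test in FFPE. Gstz1 ran from 62.7 to 180 CPM in controls and from 0 to 264 CPM in treated libraries, with a log2 fold change of -0.12 ± 0.62 (adjusted p = 0.989, edgeR), and it stood at 0.03 ± 0.05 in frozen liver. Hpd, an enzyme of tyrosine breakdown, stood at -0.71 ± 0.55 and -0.15 ± 0.07. None of 9 tested genes of pyruvate dehydrogenase and pyruvate import was called, with a median of -0.39 that reached -0.04 without animal 97. Of these 9, 6 lay above the median of all genes. In frozen liver 9 of 14 genes of this list were called higher and 2 lower, with a median of 0.43. Ppp1r3b, which targets a phosphatase to glycogen, stood at -1.79 ± 0.58 (adjusted p = 0.228, edgeR) in FFPE and was called lower at -1.40 ± 0.16 in frozen liver. None of the 18 tested glucose and glycogen genes, 13 CAR and PXR targets, 9 NRF2 targets or 19 cholesterol synthesis genes was called in FFPE. The NRF2 list, genes of the oxidative stress response, had a median of 0.03 (-0.06 without animal 97 and 0.29 without animal 78) with 8 of 9 members above the median of all genes, and 12 of 18 were called higher in frozen liver.

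**Figure D3:**
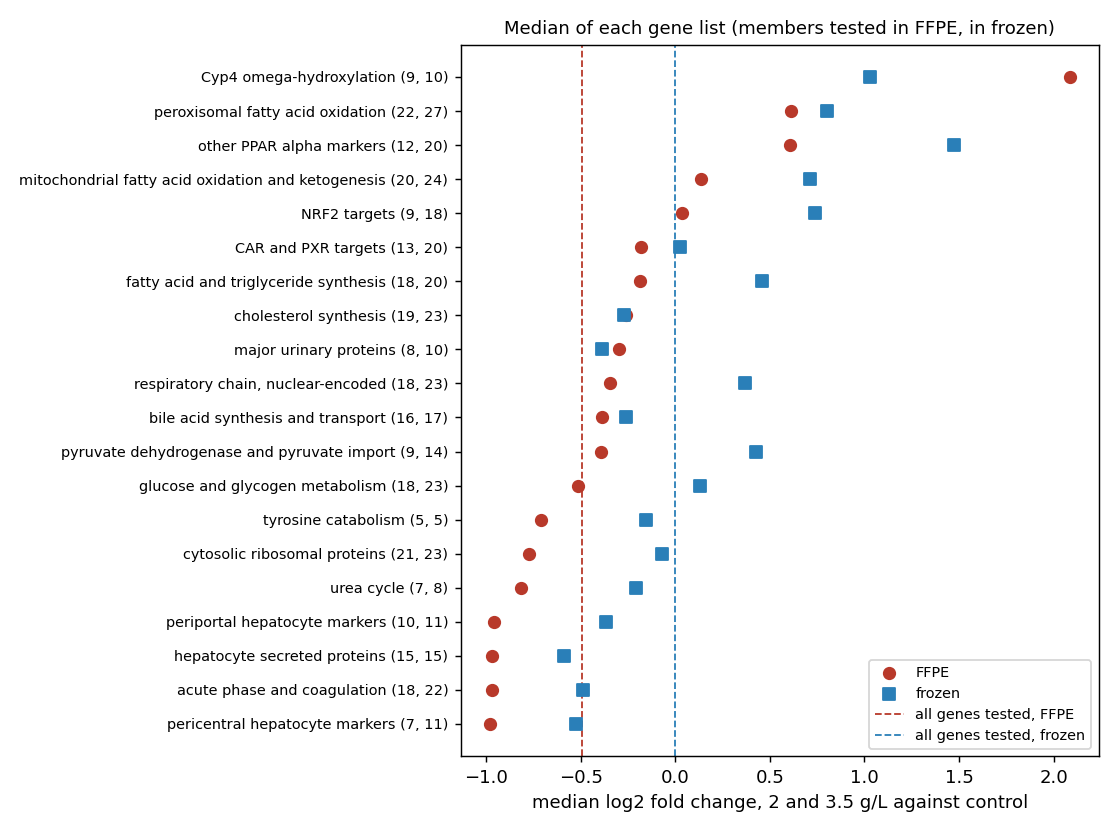
Median log2 fold change of the pooled treated group against control for 20 gene lists in FFPE (red circles) and frozen liver (blue squares), with the numbers of members tested in brackets; dashed lines mark the medians of all genes tested. The Cyp4 list lies at 2.08 in FFPE (0.70 without animal 73) and secreted and acute phase proteins at -0.97, against an all-gene median of -0.49.

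Few markers of other cell types passed the filter on low counts. Of the Kupffer, endothelial and stellate cell lists 3 members each were tested and none was called, and no bile duct, lymphocyte, pancreas or skeletal muscle marker was tested. Kupffer markers held 0.0141% to 0.0391% of counts beside Rn45s in controls and 0% to 0.112% in treated FFPE libraries, with 2 of 12 markers at 0 in every treated library. Exocrine pancreas markers held 0.0026% to 0.0559% in controls and at most 0.00133% in treated libraries, where 7 of 8 were at 0 throughout.

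Several FFPE calls had no counterpart in frozen liver. Acad12, an acyl-CoA dehydrogenase, was at most 4.34 CPM in controls and 162 CPM in treated FFPE libraries, 10 of them above every control, with a log2 fold change of 4.46 ± 1.08 (adjusted p = 0.00821, edgeR). It rests on 126 treated counts and stood at 0.15 ± 0.12 in frozen liver. Slx1b, a subunit of a structure-specific nuclease, stood at 3.84 ± 1.00 (adjusted p = 0.0259, edgeR) on 130 treated counts and at -0.20 ± 0.14 in frozen liver. For neither was the difference between preparations called (adjusted p = 0.184 and 0.143, edgeR with the animal as block). The Slx1b difference was called without animal 97 (4.29, adjusted p = 0.0475), and without the block both were called (adjusted p = 0.00103 and 0.00181). Tmem38b, an ion channel of the endoplasmic reticulum, stood at 1.68 ± 0.68 in FFPE and -0.02 ± 0.07 in frozen liver, called in neither.

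Lars2, the mitochondrial leucyl-tRNA synthetase, and AK018753, a row named by a clone, were called lower in FFPE and not called in frozen liver, and both differed within the controls. Lars2 stood at -1.68 ± 0.45 (adjusted p = 0.0368, edgeR), although its control range of 3003 to 606575 CPM encloses the treated range of 11903 to 82135 CPM. Controls 3 and 5 carried the high values, and without them the Lars2 log2 fold change was 3.16. Their TMM factors were 0.208 and 0.334, against 1.80 to 2.57 in the other controls, so these CPM are not shares of counts. Lars2 held 48.6% and 38.9% of counts beside Rn45s in controls 3 and 5. AK018753 stood at -5.48 ± 0.48 (adjusted p = 3.84e-27, edgeR). The difference between preparations was called for AK018753 (-5.54 ± 0.40, adjusted p = 7.36e-39, edgeR with the animal as block) and not for Lars2 (1.14 ± 0.35, adjusted p = 0.213). The Lars2 difference was called without control 3 (1.92, adjusted p = 1.48e-04) or without control 5 (1.88, adjusted p = 1.02e-04). Its sign is opposite to that of the separate fits (-1.68 in FFPE, 0.05 in frozen liver) and to that without the block (-1.96, adjusted p = 0.0961). AK018753 took 15.0% to 27.8% of counts beside Rn45s in controls 4, 6, 7 and 8 and in animal 50 at 1 g/L, and 0.0414% to 0.86% in the other 19 FFPE libraries. Against controls 3 and 5 alone it stood at -0.11 ± 0.74. Together with 5 further clone or predicted names, among them Gm15441 and LOC100048884, it makes up the 6 calls that carry no gene symbol. Gm15441, a predicted gene, was called higher in both preparations and had 2 FFPE counts in controls and 123 in treated libraries.

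Among genes that passed the FFPE filter on low counts, signs followed those in frozen liver mainly for large frozen changes. Of 1726 frozen calls that were also tested in FFPE, 1120 (64.9%, 95% Wilson interval 62.6% to 67.1%, which treats genes as independent) had the same sign. The count was 732 of 804 for genes lower in frozen liver and 388 of 922 for genes higher there. Taken against the FFPE median of -0.49, 1280 genes (74.2%) lay on the same side, 612 of 804 and 668 of 922. Among genes tested but not called in frozen liver, 863 of 1627 (53.0%) shared the sign and 899 (55.3%) the side of the median. Of 140 frozen calls of at least 2-fold, 133 (95%) had the same sign, 62 of 68 higher and 71 of 72 lower. All 23 of at least 4-fold had it too. Part of this share was set by the filter, because a gene low in 1 group passes only where the other is high. Acot1, with at most 4.28 CPM in FFPE controls, passed through treated libraries only. Cyp4a10, Cyp4a14 and Cyp4a31 would not have passed on controls alone. The 10 frozen rises of at least 16-fold that did not pass are not counted. With genes ranked into 3 equal groups by FFPE level, the share on the same side of the median was 68.4% of 525 genes in the lowest group, 73.3% of 559 in the middle and 79.6% of 642 in the highest. Within the 4 PPAR alpha lists, 48 of 55 frozen calls had the same sign.

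**Figure D4:**
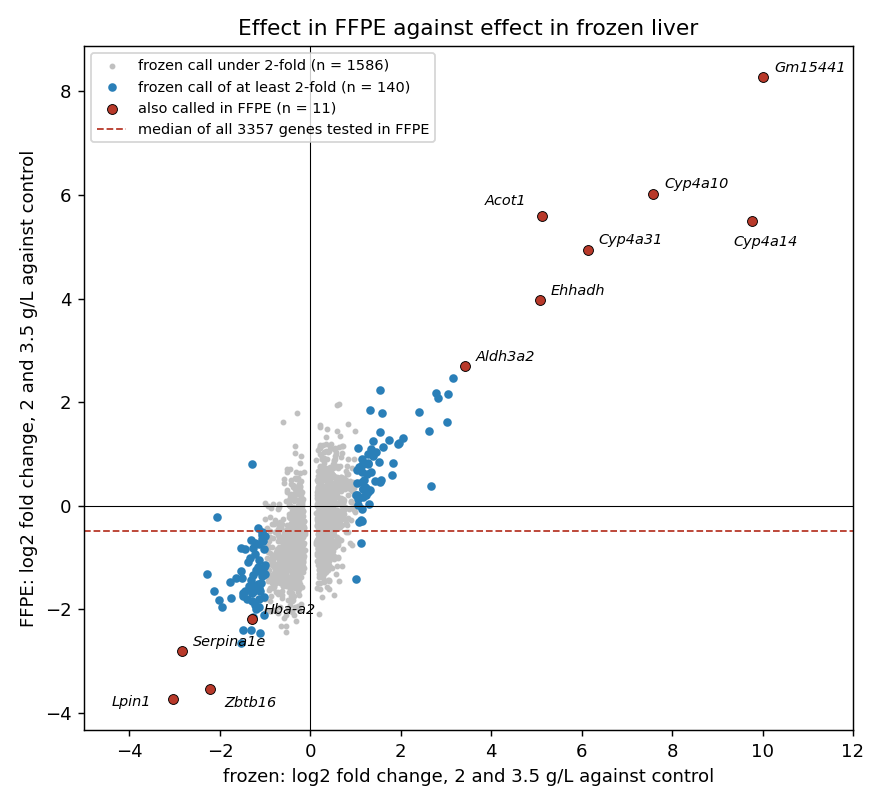
Log2 fold change of the pooled treated group against control in frozen liver (x axis) and in FFPE (y axis) for the 1726 genes with a frozen call and an FFPE test; blue points are the 140 with a frozen change of at least 2-fold, red points the 11 also called in FFPE, and the dashed line the FFPE median of -0.49. The red points lie in the upper right and lower left corners.

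The size of the effect was smaller in FFPE for Cyp4a14. In 1 model of all 36 libraries with the animal as block, its FFPE log2 fold change was 4.25 ± 0.72 below the frozen one (adjusted p = 7.19e-06, edgeR). Cyp4a10 was 2.31 ± 0.69 below (adjusted p = 0.184) and Ehhadh 1.49 ± 0.59 below (adjusted p = 0.261), neither called by edgeR. The difference was called for 7 of 11086 genes, 0.0631% (0.0361% higher and 0.0271% lower in FFPE), and the other 6 are ribosomal RNA or clone rows. In simulated data this fit also called 7 unchanged genes. The median difference over all genes was -1.37, and 1 dispersion per gene covers both preparations although FFPE libraries spread more. Leaving out 1 animal moved the count of called differences to 35 without animal 97 and to 15 without control 3. In all 22 other settings run, including each animal left out, the Cyp4a14 difference stayed called, between -4.9 and -3.52.

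Over the 12 treated animals, FFPE levels followed the frozen levels of the same animal for the 3 leading genes. Among 7 relations computed on log2(CPM + 1), Cyp4a10 had a Pearson r of 0.654 (permutation p = 0.0197, Benjamini-Hochberg 0.0459) and a Spearman rho of 0.818 (permutation p = 0.0021, adjusted 0.00735). Cyp4a14 had an r of 0.708 (permutation p = 0.00636, adjusted 0.0223) and a rho of 0.853 (permutation p = 0.0012, adjusted 0.00735), and Ehhadh an r of 0.673 (permutation p = 0.00545, adjusted 0.0223) and a rho of 0.692 (permutation p = 0.0173, adjusted 0.0303). Without animals 78 and 77, farthest from the frozen median, r was 0.656, 0.740 and 0.710. Within 2 g/L r was 0.95, 0.940 and 0.642, and within 3.5 g/L it was 0.969, 0.938 and 0.887. Animal 78 had the lowest frozen level of all 3 genes among treated animals. Lpin1, Serpina1e and Hba-a2 gave r of 0.275, 0.172 and -0.262, with adjusted permutation p of 0.468, 0.590 and 0.468, and rho of 0.232, 0.301 and -0.319 (adjusted permutation p = 0.464, 0.403 and 0.403). Aldh3a2 gave an r of 0.388 (adjusted permutation p = 0.365) and a rho of 0.694 (permutation p = 0.0154, adjusted 0.0303), and within 2 and 3.5 g/L its r was -0.02 and 0.97.

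**Figure D5:**
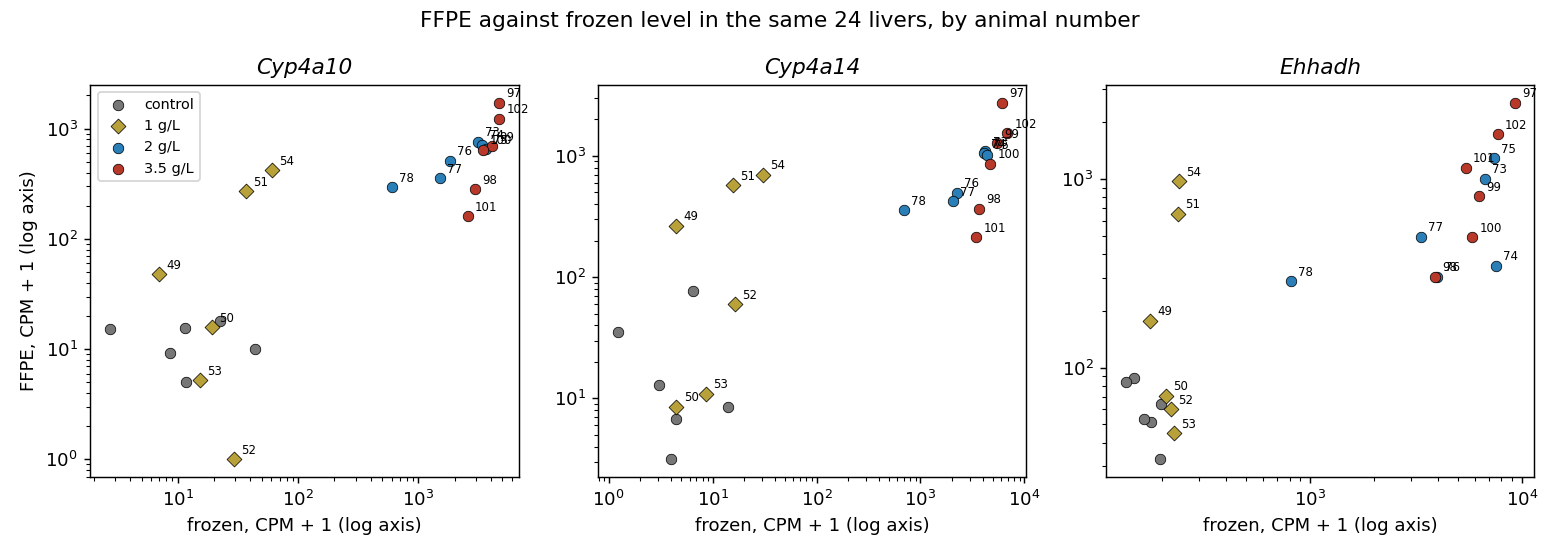
FFPE level (y axis) against frozen level (x axis) of Cyp4a10, Cyp4a14 and Ehhadh in the same 24 animals, as CPM plus 1 on log axes, scaled over all 24 libraries of a preparation; circles are control (grey), 2 g/L (blue) and 3.5 g/L (red), diamonds 1 g/L, with animal numbers. Animals 49, 51 and 54 at 1 g/L lie above the FFPE controls in all 3 panels.

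The doses did not differ detectably from each other in FFPE. In simulated data this FFPE comparison recovered only 5.26% of 2-fold, 13.4% of 4-fold and 54.4% of 16-fold changes. Comparing 3.5 with 2 g/L gave no call among 665 genes by edgeR or by DESeq2, with 9 (1.35%) at an unadjusted p under 0.05, while frozen liver gave 554 higher (4.38%) and 539 lower (4.26%) of 12639, 8.65% in all. Against control, the log2 fold changes at 2 and 3.5 g/L were 5.60 and 6.17 for Cyp4a10, 5.04 and 5.75 for Cyp4a14, and 3.32 and 4.25 for Ehhadh. Lpin1 stood at -4.27 and -3.42, and Serpina1e at -2.59 and -3.36. In frozen liver Serpina1e was lower at 3.5 than at 2 g/L by a called log2 difference of -2.08 (adjusted p = 0.00398, edgeR), and its FFPE difference was -0.59 ± 0.45. The 2 g/L and 3.5 g/L FFPE libraries carried different L numbers of 1 run (L2 and L3), read as lanes. Dose and lane cannot be told apart.

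The only FFPE libraries in both runs were those at 1 g/L, 3 in each. Between the runs at that dose edgeR called 0 of 4563 genes (47, or 1.03%, at an unadjusted p under 0.05). In simulated data this comparison recovered 0% of 2-fold, 0% of 4-fold and 15.6% of 16-fold changes, so it could detect few differences between runs. Within run W48315, the 12 treated libraries against the 3 at 1 g/L gave 0 genes higher and 1 lower of 2290 (0.0437%), which was Serpina1e at -2.53 ± 0.53 (adjusted p = 0.00371, edgeR). Cyp4a10 stood at 2.32 ± 0.81 there, Cyp4a14 at 1.95 ± 0.75 and Ehhadh at 1.38 ± 0.73, each with an adjusted p of 0.999. Among these 3, animal 54 already held 417 CPM of Cyp4a10 against a highest control of 16.9 CPM. Within run V18431, 1 g/L against control gave 0 calls among 9925 genes, with 982 (9.89%) at an unadjusted p under 0.05. Without animal 49 the comparison of runs at 1 g/L called 2 genes and without animal 51 it called 1. With the run as a term over all 24 libraries, 3 genes were called higher and 0 lower of 4772, among them Cyp4a10 at 5.54 ± 1.24 (adjusted p = 0.0116, edgeR) and Cyp4a14 at 5.51 ± 1.18 (adjusted p = 0.00749, edgeR). In that model Ehhadh stood at 3.54 ± 1.11 (adjusted p = 0.463), Serpina1e at -3.53 ± 0.97 (adjusted p = 0.216) and Lpin1 at -3.78 ± 1.52 (adjusted p = 0.999), none called by edgeR.

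Depth was matched by drawing each FFPE library down to 20053 counts beside Rn45s. Of 178 genes then tested, 13 were called higher (7.3%) and 6 lower (3.37%), and the all-gene median was -0.01. Cyp4a10 stood at 6.51 ± 0.65, Cyp4a14 at 6.22 ± 0.67, Ehhadh at 4.35 ± 0.52 and Serpina1e at -2.21 ± 0.26, all called. Acaa1b (3.38 ± 0.62) and Scd1 (2.30 ± 0.33) were called higher and Trf (-0.70 ± 0.18) lower at matched depth. Using only the 5 treated libraries with at least 100000 counts beside Rn45s, a choice made after seeing the data, 16 genes were called higher and 14 lower, Acaa1b and Scd1 among those higher. Library 97 alone holds 29.2% of the treated counts beside Rn45s and 50.9% of the treated counts of Cyp4a14, and without it the log2 fold changes of Cyp4a10 and Cyp4a14 were 5.91 and 5.33, both called.

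Leaving out 1 FFPE library at a time gave 13 to 25 calls, and Cyp4a10, Cyp4a14, Ehhadh, Acot1, Lpin1 and Serpina1e were called each time they were tested. Other calls were lost when single libraries were left out. Cyp4a31 was lost without control 5, 6 or 8 or animal 74 (log2 fold change 4.17 to 4.70, adjusted p 0.0589 to 0.134, edgeR). Aldh3a2 was lost without control 4, 5, 6 or 8 or animal 73, 99, 100 or 102 (2.47 to 2.73, adjusted p 0.0529 to 0.144). Acad12 was lost without control 6 or 8 or animal 73 (4.11 to 4.42, adjusted p 0.0523 to 0.0599), and Slx1b without control 3, 4, 5, 6 or 8 or animal 73 (3.61 to 4.27, adjusted p 0.0515 to 0.169). Zbtb16 was lost without control 3 or 5 (-3.54 to -3.44, adjusted p 0.066 to 0.0667) and passed the filter on low counts in 11 of the 18 fits. Hba-a2 was lost in 12 of 18 fits: without any 1 of the 6 controls, or without animal 73, 76, 97, 98, 100 or 102 (-2.25 to -2.04, adjusted p 0.0627 to 0.268). Lars2 was lost without control 3 or 5 or animal 75, 78, 97 or 102 (-1.64 to -0.43, adjusted p 0.0699 to 0.982). Without animal 78, which has a low level of the leading genes in frozen liver, Acaa1b, Scd1, Trf, Ahsg, Serpina3k, C4b, Mup2 and Abat were called. Acaa1b was also called without control 3 or animal 74, 75 or 76, with a log2 fold change of 2.17 to 2.63 over these 5 fits. Scd1 was also called without control 7 (1.67 to 1.97 over both fits), and Mup2, a major urinary protein, without control 7 or animal 74, 76, 97 or 101 (-1.75 to -1.67 over all 6 fits). The other members of this group stood without animal 78 at -1.58 (Trf), -1.73 (Ahsg), -1.54 (Serpina3k), -1.78 (C4b) and -2.26 (Abat, an enzyme of GABA breakdown).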

How the data were processed

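Liver RNA-seq libraries were compared as deposited. Per the submitters' processing notes, CASAVA, STAR 2.4, RSEM and the mm10 build were used; roles beyond these names, and the strand setting of the counting, are not given in the sources used here. The gene table holds expected counts that the authors deposited unnormalised for 17672 rows, 1408 of them named by GenBank clones. They were rounded to whole numbers. Columns were matched to libraries by animal number and preparation in the headers, and dose came from the sample titles. The headers also give the run and an L number that reaches L11. It is read here as the lane, which the headers do not state. Rn45s stayed in the main library sizes and was removed as an alternative.

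Each pooled contrast was tested with the two-sided quasi-likelihood test of edgeR 4.0.16, running under R 4.3.3 and limma 3.58.1. Low genes were left out with filterByExpr at a minimum count of 10, and libraries were scaled by TMM. Genes were called at a Benjamini-Hochberg adjusted p under 0.05 over all genes tested. The SE is the log2 fold change divided by the square root of F. CPM are TMM scaled, with factors of 0.208 to 2.57 in control FFPE libraries and 0.547 to 1.65 in treated ones. Fits were tested on simulated data in which 200 genes were changed by 2, 4 or 16-fold. The pooled FFPE fit recovered 2.6%, 15.6% and 57.6% of these, and the frozen fit 86.7%, 96.9% and 96.7%. The difference between preparations recovered 0%, 22.1% and 66.7%. Unchanged genes called by mistake numbered 4 in the pooled FFPE fit, 11 in the frozen fit and 7 in the difference. Unchanged genes of the simulated pooled FFPE fit had a median log2 fold change of -0.34. Single values were compared by exact permutation and correlations by 100000 permutations, with scipy 1.17.1 and numpy 2.4.6 (Python 3.11.15). Coordinates are from GENCODE M21 on mm10 (GRCm38).

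The members and lists were chosen with earlier results of these data known. Genes were named by a rule: the 10 largest rises and falls among calls that averaged 6 or more on the log2 CPM scale (filled by the smallest unadjusted p), the 2 members of smallest p of each list, and a fixed set. Clone and predicted names were passed over (4 genes). The rule gave 83 genes, 29 of them in the text (some are not reported here); of the other 54, 52 were tested, none was called by edgeR, and their log2 fold changes ran from -2.17 to 1.35 (lowest adjusted p 0.156). Cyp4a31, Plin2, Acad12, Slx1b, Zbtb16 and AK018753 fall outside it and were chosen after their values were seen. All 34 lists are counted in the text or the closing section.

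Pairing comes from the labels: the same animal gave both preparations, so the difference between preparations was fitted with the animal as replicate block. Of 18 animals, 14 had FFPE residuals that matched their own frozen residuals best within the dose (median r 0.151 over 574 genes). Alternatives were DESeq2 1.42.0, its size factors, other filters, a second deposited count table (its FFPE part holds 19008 genes, 12167 of them in the main table), thinning, each dose alone, no block and leaving out each library. Depth ran from 20053 to 4357876 counts beside Rn45s over the 18 FFPE libraries.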

Additional observations from a re-analysis of the deposited data

Results flagged for a closer look

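Single control animals stood apart for some named genes. Of 70 groups of 6 animals tested with Dixon's criterion, 9 had a highest or lowest animal far from the rest, and chance marks about 1 in 20 groups. In FFPE these were control 4 for Acot1 (4.28 CPM) and Cps1 (1891 CPM), control 3 for Acaa1b (195 CPM), control 7 for Scd1 (2847 CPM), control 6 for Decr1 (39.7 CPM) and control 8 for Zbtb16 (33.3 CPM, the lowest). In frozen liver they were control 7 for Scd1 (4712 CPM) and Gstz1 (475 CPM) and control 4 for Lpin1 (830 CPM). Control 7 was high for Scd1 in both preparations.

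The effect of the higher doses differed between FFPE and frozen liver for 7 rows, by the interaction with the animal as block. On the log2 scale the FFPE effect minus the frozen effect was -4.25 for Cyp4a14, -5.54 for AK018753, -6.85 for AK200600, 4.08 for AK033180, 11.91 for AK148054, 3.59 for GU332589 and 2.96 for Rn45s. Without the block Rn45s stood at 0.12 (adjusted p = 0.942) and GU332589 at -2.33 (adjusted p = 0.211, edgeR), neither called, while the other 5 stayed called with the same sign. AK200600 lost its call without control 3, 4 or 5 or animal 74, 99, 100 or 101 (adjusted p 0.0519 to 0.0813, edgeR with the animal as block). It was not tested under the stricter filter. The separate fits gave -0.32 in FFPE and -0.73 in frozen liver for Rn45s after TMM scaling. Its mean share of all FFPE counts was 29.1% in controls and 63.7% in treated libraries, the opposite direction. AK018753, GU332589 and Rn45s also differed among the controls: the 5 FFPE libraries with 15.0% to 27.8% of counts beside Rn45s on AK018753 had 0.117% to 0.295% on GU332589, and the other 19 had 6.11% to 34.2%.

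Animals 49, 51 and 54 at 1 g/L, which the pooled comparison does not use, lay above all FFPE controls for Cyp4a10, Cyp4a14 and Ehhadh. Animal 51 had 270 CPM of Cyp4a10, 571 CPM of Cyp4a14 and 655 CPM of Ehhadh. Animal 54 had 417, 700.4 and 977 CPM of these genes, and animal 49 had 47.0, 265 and 177 CPM. The highest FFPE controls were at 16.9, 76.1 and 87.4 CPM. In frozen liver animals 51 and 54 held 36 and 59.7 CPM of Cyp4a10, 14.8 and 29.4 CPM of Cyp4a14, and 237 and 239 CPM of Ehhadh. Animal 49 held 5.98, 3.45 and 174 CPM of these genes there. Whether these FFPE libraries match their labels was not tested.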

How the results depend on the processing

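The 19 calls of the pooled FFPE contrast became 41 with DESeq2 (6 higher, 35 lower), 148 without a filter on low counts, 9 with the second count table, 3 with the sequencing run as a term, 30 with the 5 deeper treated libraries, 32 with these and without controls 3 and 5, and 7 with controls 3 and 5 as the only controls. Leaving out 1 library at a time gave 13 to 25. The 4917 frozen calls became 3237 after thinning and 3246 at 2 g/L alone, and 4272 to 5195 with 1 library left out. Without the replicate block the difference between preparations gave 620 calls in place of 7, and 6 to 35 with 1 animal left out. The 2 doses gave 0 calls in each such fit, and the runs at 1 g/L 0 to 2. The 64.9% of frozen calls with the same sign became 59.6% with a stricter filter, 68.2% with Rn45s removed, 79.4% after thinning, 60.6% at 2 g/L alone, 61.1% with the run as a term, 95% for frozen calls of at least 2-fold and 74.2% against the median (63.9% to 66.8% with 1 library left out). The second-table, deeper-library and control-subset fits test other genes or fewer libraries; the cause of other shifts was not tested. Choices that involve the deeper libraries, subsets of controls, removed clone rows or the median were made after seeing the data.

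Of 14 called genes named, only Cyp4a10 and Cyp4a14 kept their call in all alternatives run. Over 443 alternative values of these 14, 342 kept the call, 98 lost it and 3 changed sign. The latter were Lars2 at 0.58 with the run as a term, 3.16 without controls 3 and 5 and 2.47 with the deeper libraries as well. Of the 21 genes not called, Tmem38b stood at -0.19 with the run as a term and Hpd at 0.61 after thinning. Gstz1 stood at 0.0092 at 2 g/L alone, between -0.25 and 0.045 (without control 5) with 1 library left out, 0.21 with the deeper libraries and 0.27 with these and without controls 3 and 5. At the depth of these libraries, 5 of 12 treated libraries had no count of Lpin1 and 8 none of Zbtb16.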

Other observations

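Some of the largest frozen rises lay below the FFPE filter on low counts. Of the genes that rose at least 16-fold in frozen liver, 10 were not tested in FFPE, and they were chosen after their values were seen. Summed over libraries, 9 of them took a larger share of counts beside Rn45s in treated than in control FFPE libraries, and 1 (Prrg4) had no count in any. The same count was not made for the other genes below the filter. Cyp2b9, a cytochrome of the CAR-responsive Cyp2b family, had 0 counts among 15405910 in controls. It had 96 among 1633721 in treated libraries, all in 5 of them. With 3 counts set for the control group, the ratio of the summed shares was 302. This ratio leaves out the spread between libraries and is not a lower bound. Acot3, a peroxisomal acyl-CoA hydrolase, had 0 counts in controls and 54 in 3 treated libraries, a ratio of 170 computed the same way. Cyp2a4, a steroid hydroxylase, had 1 count in controls and 50 in 2 treated libraries. Acot2, the mitochondrial hydrolase, had 84 counts in controls and 80 in treated libraries, or 5.45 and 49.0 CPM of counts beside Rn45s. These genes have close relatives, so reads may be split among them, and none has an FFPE test.

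Further gene lists had no call in FFPE. Of the genes of the respiratory chain encoded in the nucleus, 18 were tested with a median log2 fold change of -0.34, and 11 lay above the median of all genes, while frozen liver had 19 of 23 called higher and 1 lower. Cytosolic ribosomal proteins (21 tested) had a median of -0.77, with 7 above the median of all genes. Major urinary proteins (8 tested) had a median of -0.30, bile acid genes (16 tested) -0.39, tyrosine catabolism (5 tested) -0.71, the urea cycle (7 tested) -0.82, structural RNA (3 tested) -0.67, long noncoding RNA (3 tested) -0.18 and histones (3 tested) 0.03. Only 1 of 24 cell cycle genes and 4 of 24 interferon response genes passed the FFPE filter, whereas frozen liver had 10 cell cycle genes called higher and 15 interferon response genes called lower. No gene of the mitochondrial genome is in the table used.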
